A study of Mus musculus with 24 samples.

Results

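The genes described here are 10 immediate early genes of the AP-1 and EGR groups: Fos, Fosb, Fosl2, Jun, Junb, Jund, Egr1, Egr2, Egr3 and Ier2. They were chosen by symbol among 23991 gene symbols, and each of the 10 was found once. They were read in 24 libraries of stem and progenitor cells sorted from the bone marrow of C57BL/6 mice. LSK cells (lineage-negative, Sca1-positive, cKit-positive) hold the stem and early multipotent cells, and GMP are granulocyte-monocyte progenitors. With 4 genotypes in both populations and 3 libraries of each there were 8 groups. WT was the control. ITD carried Flt3-ITD, an activating duplication within the receptor tyrosine kinase Flt3. IRE1_KO was Ern1(fl/fl)-VavCre, in which a Cre driven by the blood-cell Vav promoter acts on the floxed gene for the ER stress sensor IRE1, and IRE1_KO_ITD carried both. The comparisons ask how these genes differ with Flt3-ITD, with the labelled deletion, with both, and between LSK and GMP.

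Immediate early genes are transcribed within minutes of a stimulus without new protein synthesis, and their mRNAs are short-lived. Fos and Jun family proteins pair through leucine zippers to form the dimeric transcription factor AP-1. EGR proteins are zinc-finger factors that bind GC-rich sites. Signals through the ERK, JNK and p38 kinases reach these genes by way of SRF with its ternary complex factors, and of CREB and ATF proteins. The same genes are also induced by handling: tissue dissociation and cell sorting are known to raise them.

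Expression was given as FPKM, read fragments scaled to transcript length and library size, so levels can be compared between genes. The FPKM of a library summed to between 510361 and 673177, with 10436 to 11471 genes at 1 FPKM or more. Relative depth, read from the ratios of low values, lay between 0.923 and 1.28 times that of the library set as reference. The marker genes of the 2 populations fitted their labels: the summed FPKM of 8 LSK markers was 237 to 459 in LSK and 28.5 to 58.0 in GMP libraries, and that of 8 GMP markers was 1040 to 3427 in LSK and 18910 to 31690 in GMP libraries. Ern1 itself was not lower in the libraries labelled IRE1_KO, at a mean of 7.62 FPKM against 4.34 in WT LSK and 20.6 against 9.06 in WT GMP. A value over the whole gene does not read a deleted exon, so the genotype is used here as labelled. The labels do not say that libraries came from separate animals, so p-values measure the spread between libraries, which may be technical. The 3 IRE1_KO LSK libraries alone carry a 1 ng tag in their column names, and this tag and the genotype cannot be told apart.

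Sequence before the start of these genes is shown first, because several members moved together from library to library. Promoter windows were in the RefSeq table (build GRCm38.p6) for 7 of the 10 members. The windows for Egr1, Egr3 and Ier2 were not used here. Both strands of the 250 bases before each start were searched for TGACG (the core of the cAMP response element), TGACGTCA (the full element), TGACATCA, TGANTCA (the AP-1 site), GCGNGGGCG (an EGR site), TATAAA and the CArG box, the SRF site. TGACG is contained in TGACGTCA. In the 5 windows below, capitals mark the matches, and each is read 5′ to 3′ on the gene's own strand.
Fos, chr12:85473640-85473889, plus strand: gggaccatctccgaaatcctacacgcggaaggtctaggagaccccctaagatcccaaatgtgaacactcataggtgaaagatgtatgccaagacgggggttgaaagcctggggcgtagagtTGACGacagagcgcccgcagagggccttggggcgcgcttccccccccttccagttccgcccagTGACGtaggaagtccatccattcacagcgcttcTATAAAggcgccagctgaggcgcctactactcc
Fosb, chr7:19310046-19310295, minus strand: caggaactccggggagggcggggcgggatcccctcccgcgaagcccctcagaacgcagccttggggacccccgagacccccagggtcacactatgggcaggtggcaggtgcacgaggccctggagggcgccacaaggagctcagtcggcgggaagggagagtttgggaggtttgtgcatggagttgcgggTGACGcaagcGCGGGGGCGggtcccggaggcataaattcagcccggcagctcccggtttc
Jun, chr4:95052223-95052472, minus strand: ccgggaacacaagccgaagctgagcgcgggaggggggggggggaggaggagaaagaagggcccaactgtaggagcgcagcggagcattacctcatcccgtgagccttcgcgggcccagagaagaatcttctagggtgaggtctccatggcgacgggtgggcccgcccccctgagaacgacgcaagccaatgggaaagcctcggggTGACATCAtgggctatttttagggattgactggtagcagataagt
Junb, chr8:84978749-84978998, minus strand: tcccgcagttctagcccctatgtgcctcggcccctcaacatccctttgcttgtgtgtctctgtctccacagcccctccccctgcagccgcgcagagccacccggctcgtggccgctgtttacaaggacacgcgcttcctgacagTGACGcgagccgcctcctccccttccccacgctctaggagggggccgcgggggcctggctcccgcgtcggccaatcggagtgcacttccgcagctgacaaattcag
Egr2, chr10:67537619-67537868, plus strand: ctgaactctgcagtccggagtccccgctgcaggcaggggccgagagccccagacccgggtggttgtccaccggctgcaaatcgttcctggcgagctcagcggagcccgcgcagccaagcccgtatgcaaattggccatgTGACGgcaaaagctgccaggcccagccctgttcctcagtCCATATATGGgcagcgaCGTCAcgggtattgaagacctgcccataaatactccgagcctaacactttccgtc
Fos had TGACG at -129 to -125 and at -66 to -62 from the start, and TATAAA at -33 to -28. Fosb had TGACG at -60 to -56 beside an EGR site at -50 to -42. Junb had TGACG at -106 to -102. Jun had TGACATCA at -45 to -38. Egr2 has 5 windows in the table, and the one printed had a CArG box at -72 to -63 between copies of TGACG at -111 to -107 and -55 to -51. The printed window lies downstream of the GENCODE start of Egr2, at position 67535475. The window nearest that start held none of these motifs, and the next held a CArG box without TGACG. The rest overlapped the printed window and held the same motifs. Fosl2 had an EGR site at -79 to -71, in a window that also lies downstream of its GENCODE start. The Jund window held none of these motifs, but it ends 1210 bases before the GENCODE start of Jund.
These matches are a description of the letters and not of binding. Bases further from the start were not searched, so a motif not listed for a gene may lie there. Of 32851 promoter windows of the same length, 17.8% held TGACG, 1.55% TGACGTCA, 2.93% TGACATCA, 6.75% TGANTCA, 4.7% GCGNGGGCG, 12.4% TATAAA and 1.47% a CArG box.

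Fos, the main partner of Jun proteins in AP-1, was the most abundant member on the FPKM scale. In WT LSK the libraries numbered 1, 2 and 3 had 981, 3044 and 3315 FPKM, and in IRE1_KO LSK 1046, 3014 and 3573. In ITD LSK they had 339, 1985 and 1722, and in IRE1_KO_ITD LSK 357, 1817 and 1242. These 4 groups overlapped, and library 1 was the lowest of each. In GMP the values were lower: 216, 656 and 616 FPKM in WT, 177, 1003 and 1207 in ITD, 182, 730 and 787 in IRE1_KO, and 1216, 828 and 130 in IRE1_KO_ITD. By mean, the order ran IRE1_KO LSK, WT LSK, ITD LSK, IRE1_KO_ITD LSK, then ITD, IRE1_KO_ITD, IRE1_KO and WT GMP, and no neighbours in it were free of overlap.

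Fosb, a relative of Fos with the same partners, was present at far lower levels. WT LSK had 46.9, 181 and 179 FPKM, ITD LSK 14.9, 82.8 and 77.2, IRE1_KO LSK 25.6, 78.2 and 102, and IRE1_KO_ITD LSK 14.8, 104 and 51.7. The 2 higher WT LSK libraries lay above every other library, while the lowest overlapped the other groups. All GMP libraries lay between 3.21 and 42.8 FPKM. Fosl2, which encodes Fra-2, was low throughout, from 0.709 to 5.53 FPKM over the 24 libraries. Its 2 highest values were WT LSK libraries 2 and 3 at 5.53 and 4.89 FPKM, whereas WT LSK library 1 had 0.881. In GMP it was even, with means from 2.27 ± 0.12 (SD, n = 3) in WT to 3.22 ± 0.25 (SD, n = 3) in ITD. Fos supplied 94.2% to 97.3% of the summed FPKM of Fos, Fosb, Fosl2 and their relative Fosl1, which is not a member, as a group mean.

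Junb, which has a weaker transactivating domain than Jun and limits proliferation of myeloid progenitors in mice, was the most abundant Jun family member in WT LSK, at 342, 683 and 614 FPKM. It stood at 148, 442 and 365 in ITD LSK, 340, 951 and 776 in IRE1_KO LSK and 202, 482 and 370 in IRE1_KO_ITD LSK. The GMP libraries ranged from 70.2 to 227 FPKM, and in WT, IRE1_KO and IRE1_KO_ITD none reached the lowest LSK library of its genotype. Jun, the partner that gives AP-1 most of its activating strength, had 140, 238 and 260 FPKM in WT LSK and 36.7, 209 and 227 in ITD LSK. It was high in IRE1_KO LSK, at 328, 1097 and 759 FPKM, all above the WT LSK libraries. In IRE1_KO_ITD LSK it had 95.6, 403 and 386 FPKM, and GMP libraries ranged from 52.4 to 295.

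Jund, often described as the steadily expressed Jun protein, was high in 1 group. WT LSK libraries had 10.1, 25.1 and 12.2 FPKM and ITD LSK libraries 3.91, 7.97 and 10.9. IRE1_KO LSK libraries had 69.1, 230 and 252 FPKM, above every other library. IRE1_KO_ITD LSK libraries had 9.001, 28.2 and 41.5. In GMP the values were 9.29, 11.04 and 11.9 in WT, 30.3, 18.9 and 18.8 in ITD, 7.42, 21.5 and 45.7 in IRE1_KO, and 9.88, 14.1 and 12.1 in IRE1_KO_ITD. Jund made up 11.2% ± 2.5 (SD, n = 3) of the summed Jun family FPKM in IRE1_KO LSK and 2.03% ± 0.64 in WT LSK. Junb correspondingly made up 43.8% ± 2.2 and 70.3% ± 1.6, and Jun 45.0% ± 2.9 and 27.6% ± 2.2, with no overlap between these 2 groups in any of the shares.

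**Figure D1:**
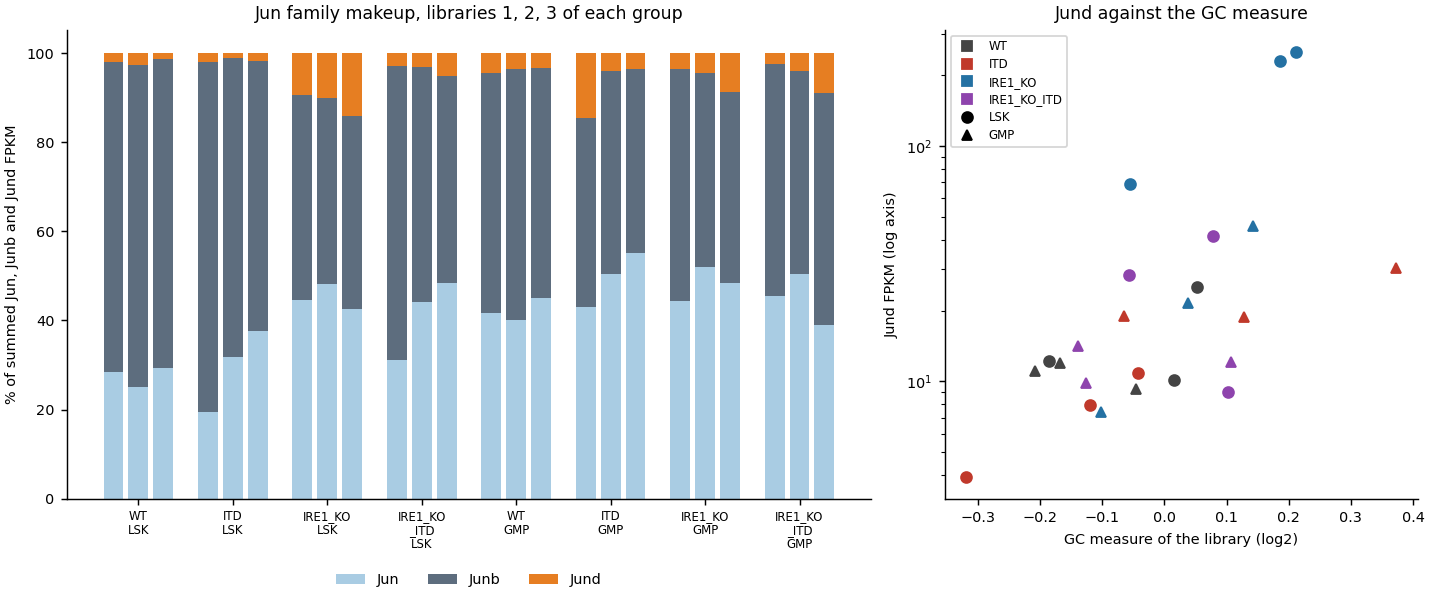
Left: share (%) of Jun, Junb and Jund in their summed FPKM, 1 bar per library. Right: Jund FPKM (log axis) against the GC measure of each library (log2, defined in the text), coloured by genotype, circles LSK and triangles GMP. The 3 IRE1_KO LSK libraries have the highest Jund values, 69.1 to 252 FPKM.

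Jund is also the member with the most GC-rich transcript, at 67.1% GC, the 99.6th percentile of tested genes. A GC measure was taken for each library as the median log2 deviation of genes above 57.9% GC minus that of genes below 41.2% GC. Its mean was 0.11 in IRE1_KO LSK, -0.04 in WT LSK and -0.16 in ITD LSK. Over 24 libraries, which share groups, log2 Jund correlated with this measure at r = 0.63, and the other members at -0.11 to 0.33. Within the 12 LSK libraries, where the difference lies, r was 0.74 for Jund, 0.68 for Jun, 0.65 for Egr1, 0.61 for Ier2, 0.54 for Junb and 0.35 for Fos. Within the 12 GMP libraries r was 0.70 for Jund, 0.34 for Fosl2 and negative for the other members. The part of GC content in the Jund level was not tested beyond a correction. The Jund difference between IRE1_KO and WT LSK was 2.35 on the log2 scale (limma adjusted p = 0.0109) after this correction for GC content and length, against 3.35 before it. Jun overlaps the antisense gene Junos, Junb overlaps Prdx2, and Jund overlaps Gm11175, each on the opposite strand. Whether counting used strand is not given in the sources used here, so reads of these pairs may not be separable.

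Egr1, a zinc-finger factor that helps keep haematopoietic stem cells quiescent, had 156, 330 and 280 FPKM in WT LSK and 43.1, 178 and 149 in ITD LSK. It had 236, 569 and 594 in IRE1_KO LSK and 90.3, 285 and 208 in IRE1_KO_ITD LSK. GMP libraries had 11.3 to 73.4 FPKM, below every LSK library of WT, IRE1_KO and IRE1_KO_ITD. Egr2 and Egr3, related factors best known from nerve cells and lymphocytes, were low. Egr2 ranged from 2.004 to 6.48 FPKM in LSK and 0.425 to 1.99 in GMP. Egr3 ranged from 0.949 to 4.33 FPKM in LSK and from 0.102 to 0.566 in GMP, where it failed the filter on low values and was not tested within GMP.

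Ier2, a growth-factor-induced nuclear protein of less certain function, was abundant in every library, from 165 to 951 FPKM. WT LSK had 426, 686 and 683 FPKM, ITD LSK 236, 555 and 506, IRE1_KO LSK 534, 951 and 889, and IRE1_KO_ITD LSK 357, 609 and 562. The GMP means lay close together, from 273 ± 42 (SD, n = 3) in WT to 320 ± 125 (SD, n = 3) in ITD. These groups overlapped.

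**Figure D2:**
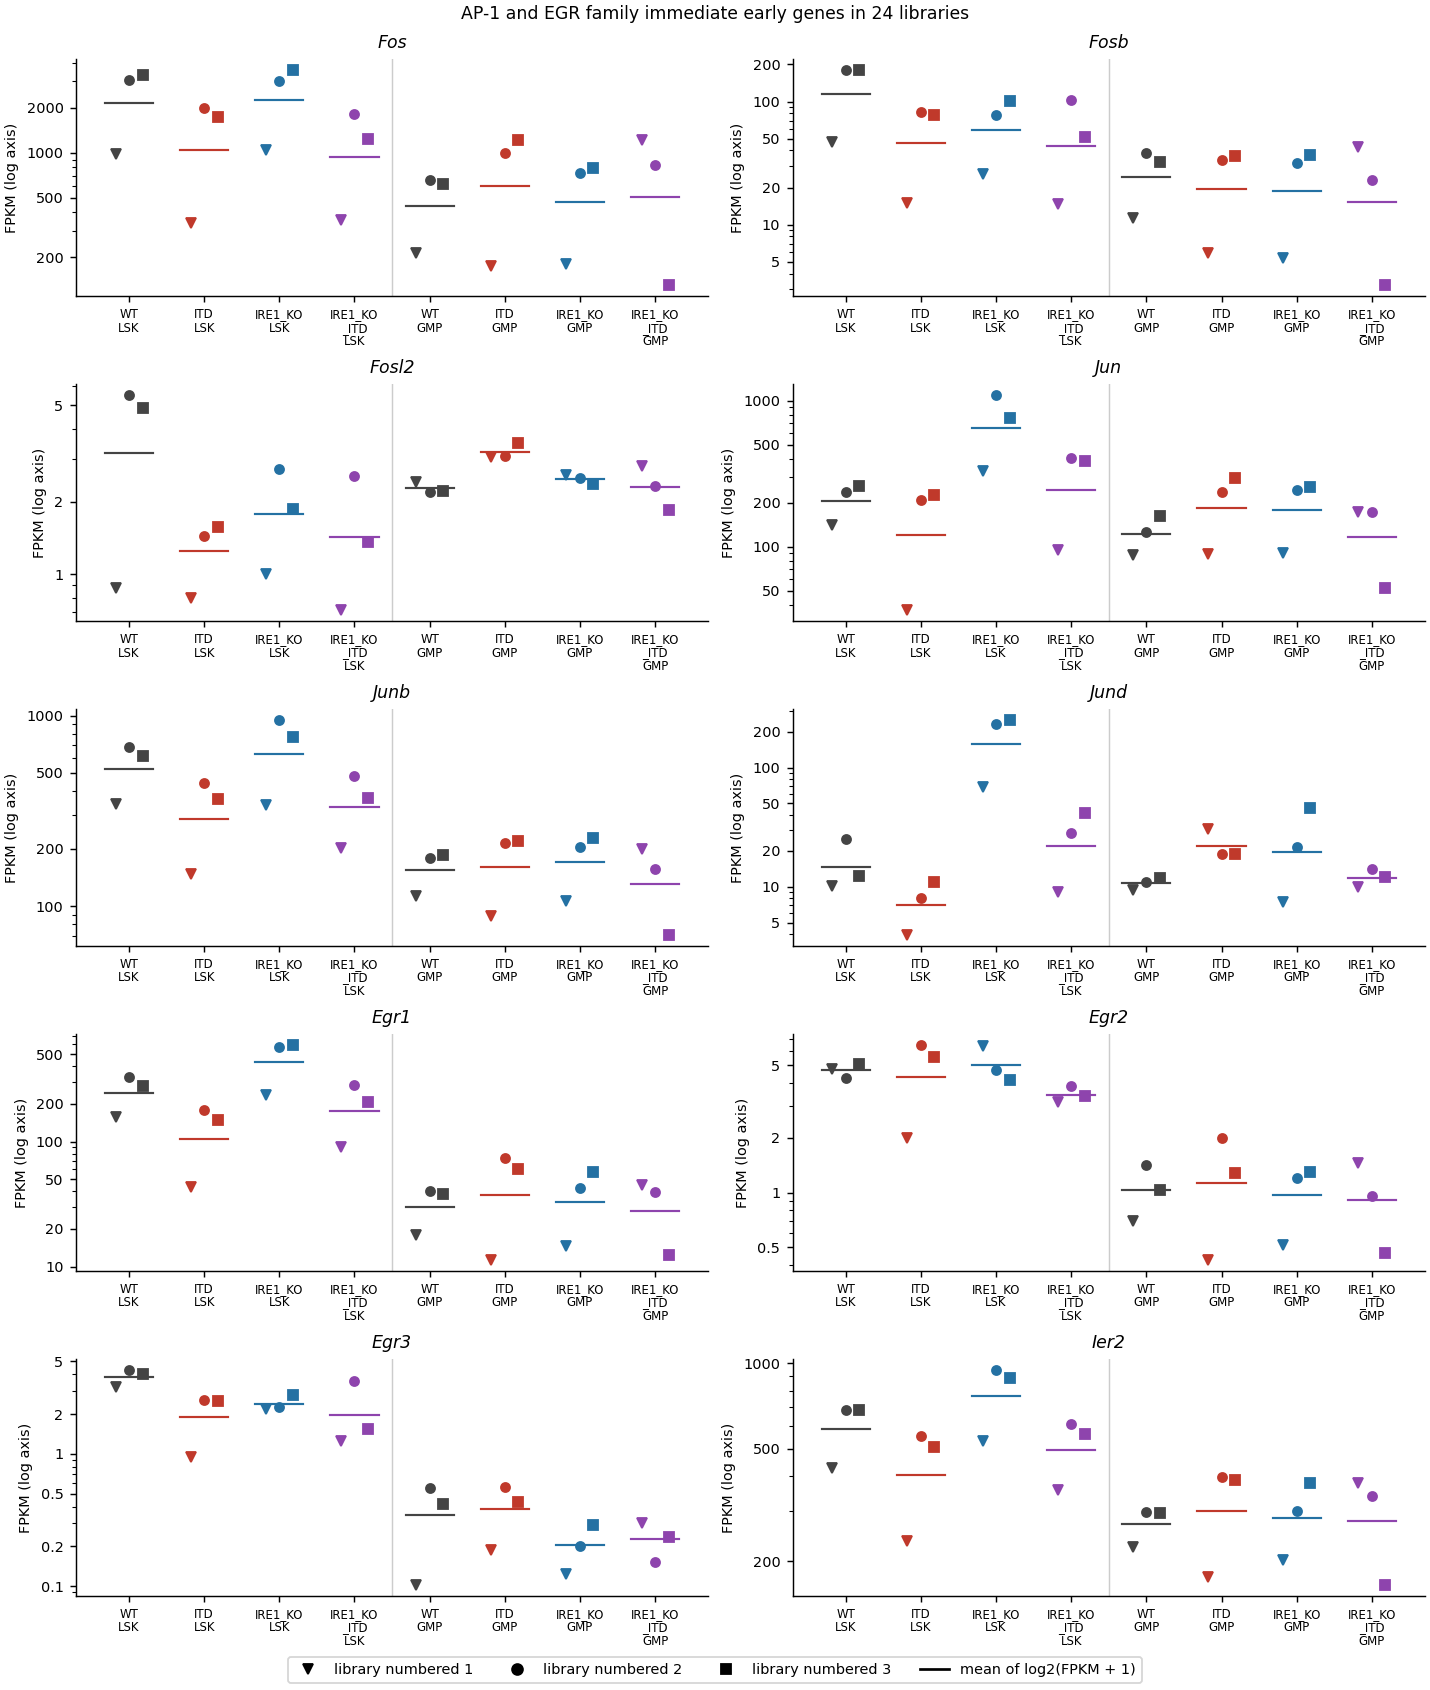
FPKM (log axis) of each member in 24 libraries by group, LSK left and GMP right of the grey line. Markers show the library number and bars the mean of log2(FPKM + 1) in FPKM. In 7 of 8 groups the triangle of library 1 is the lowest Fos value, and Jund stands out in IRE1_KO LSK.

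Most members were low in the same library of each group. The library numbered 1 had the lowest value in 7 of 8 groups for Fos, Fosb, Jun, Junb, Egr1, Egr3 and Ier2, and likewise for Jund, with another library lowest in the remaining group. For Fosl2 and Egr2 this held in 5 of 8 groups. In IRE1_KO_ITD GMP it was library 3 that was lowest, for 8 of 10 members. Of 8258 genes with a mean of at least 5 FPKM, 1.33% had library 1 lowest in at least 7 groups. The within-group SD on the log2 scale was 1.27 for Fos, 1.32 for Fosb, 0.95 for Jun, 0.95 for Egr1, 0.68 for Junb and 0.51 for Ier2, against a median of 0.18 over those genes. The members summed to between 0.0781% and 1.33% of a library's FPKM.

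Some marker sums were low in the same libraries as the members. The sum of 5 erythroid markers was lowest in the library with the lowest members' mean in 7 of 8 groups: 278 FPKM against 723 and 651 in WT LSK, 7.32 against 105 and 46.9 in ITD LSK, 486 against 1032 and 1102 in IRE1_KO LSK, and 59.9 against 337 and 462 in WT GMP. In IRE1_KO_ITD LSK it was highest in that library, at 14.0 FPKM against 10.03 and 13.01. The LSK marker sum was lowest in the members' low library in 6 of 8 groups, the T and NK cell sum in 5, the GMP marker and heat shock sums in 2, and each other marker sum in 4. The sum of 12 heat shock genes was 2092 FPKM in library 1 of WT LSK against 2097 and 2087, in ITD LSK 2624 against 2961 and 3049, and in IRE1_KO_ITD LSK 2367 against 2406 and 2408. The low libraries were not of 1 sex, since by Xist and Y-linked genes library 1 was female in WT and ITD and male in IRE1_KO and IRE1_KO_ITD. In IRE1_KO_ITD the same number had the same sex in LSK and GMP for 1 of 3 numbers, against 3 of 3 in WT and in IRE1_KO. In ITD all libraries were female, so its match of 3 of 3 was fixed in advance. Equal numbers in IRE1_KO_ITD therefore need not mean the same mouse. The GMP marker sum was higher in library 1 of WT LSK, 3086 FPKM against 1051 and 1382, and of IRE1_KO LSK, 3427 against 2187 and 1815. In ITD LSK it was lower in library 1, 1683 against 3035 and 3349. The part of these differences in the members' levels was not tested.

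**Figure D3:**
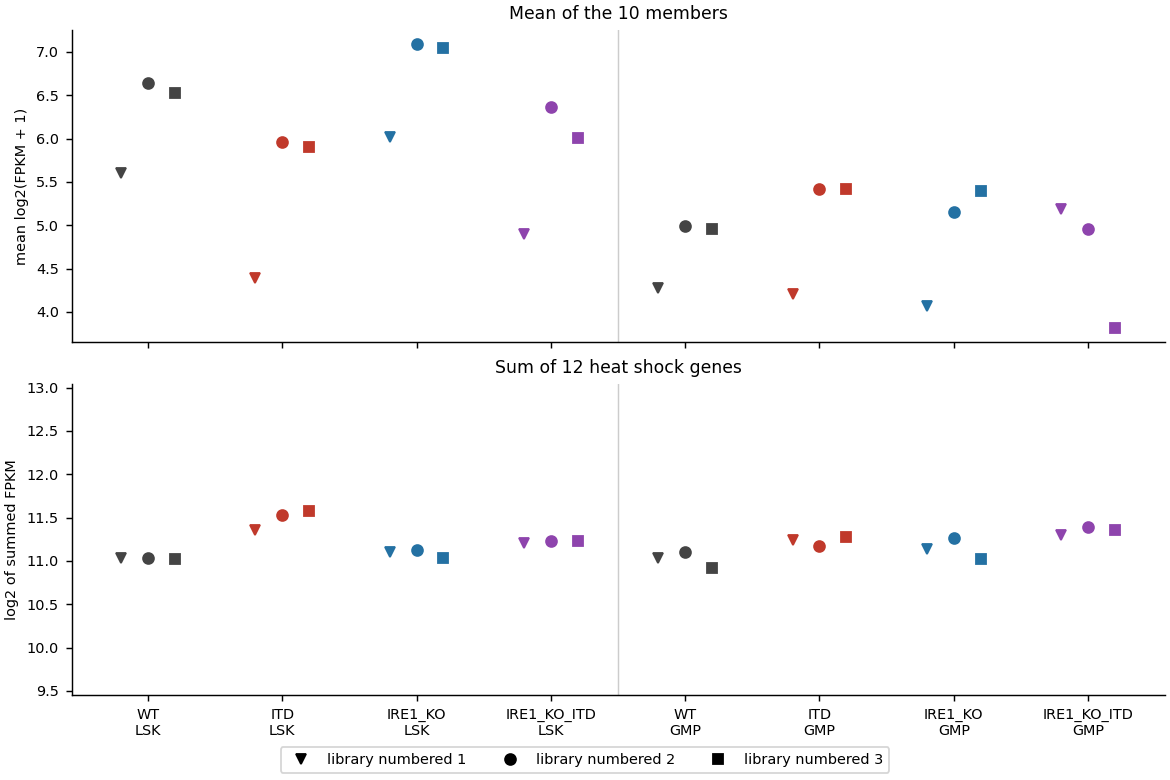
Top: mean log2(FPKM + 1) of the 10 members in each library. Bottom: log2 of the summed FPKM of 12 heat shock genes, on an axis of the same length. Triangles, circles and squares are libraries 1, 2 and 3 of each group, and colours are genotypes. The members' mean is lowest in library 1 in 7 of 8 groups and in library 3 in IRE1_KO_ITD GMP, and the heat shock sum is lowest in the same library in 2 of 8 groups.

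With group means removed, Fos correlated at r = 0.99 with Fosb, 0.98 with Junb, 0.98 with Egr1, 0.98 with Ier2 and 0.945 with Jun over the 24 libraries. It correlated less with Egr2, Egr3, Fosl2 and Jund, at r = 0.72, 0.695, 0.58 and 0.54. These are descriptions of libraries that share groups. Of 8251 other genes with a mean of at least 5 FPKM, the 10 with a pattern over 24 libraries most like the members' mean included Zfp36 (r = 0.98), Ppp1r15a, Btg2, Nr4a1, Spry1, Plk2, Dnajb1, Nfkbiz and Csrnp1 (r = 0.93). With group means removed they included Zfp36 (r = 0.98), Rgs2, Dusp1, Trib1, Atf3, Nfkbiz, Klf6, Tnfaip3 and Cd69 (r = 0.96). Zfp36 encodes tristetraprolin, which speeds decay of mRNAs with AU-rich elements, Dusp1 a MAP kinase phosphatase, and Atf3 a stress-induced bZIP factor that can pair with Jun.
Jund was nearest to Jun among the members, at r = 0.81 over 24 libraries and 0.65 with group means removed. The other genes closest to it, listed after its values had been seen, were Map1lc3a (r = 0.96), Ing2 (r = 0.94) and Rnf11 (r = 0.94). Map1lc3a encodes an autophagosome protein and had 23.5 FPKM in IRE1_KO LSK against 5.74 in WT LSK, and Rnf11 26.6 against 4.75. Their transcripts have 63.1% GC for Map1lc3a, 47.6% for Ing2 and 42.6% for Rnf11. After these came Gm13363 (42.3%), Kcna3 (60.3%), Pim3 (61.9%), Pnrc1 (51.6%), Zfand5 (39.8%), Yrdc (55.3%) and Pink1 (59%). Of all of these, Map1lc3a, Kcna3, Pim3 and Pink1 lay above the 57.9% bound used in the GC measure. The part of GC content in this pattern was not tested.

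In LSK, the members tended lower in ITD than in WT, but with all 3 libraries a group none passed the test. Log2 fold changes of FPKM + 1 were negative for 10 of 10 members, with a median of -0.88 against 0.08 over all 11955 tested genes. Most members moved together from library to library, so counts of their signs, here and below, are not counts of separate observations. Without ITD LSK library 1, Jun was at 0.08 and Egr2 at 0.30. By limma, 0 of 10 members had an adjusted p under 0.05, where 22.2% of all tested genes did (14.9% higher, 7.27% lower), and 1 had an unadjusted p under 0.05. That one was Egr3, with ITD LSK values of 0.949, 2.56 and 2.50 FPKM against 3.19, 4.33 and 4.04 in WT, a log2 fold change of -0.74 ± 0.28 (SE) and an adjusted p of 0.0863. Its ITD and WT libraries did not overlap, which is a description and not a test. The share of all genes without overlap was not counted, here or in the other comparisons. Fos had a log2 fold change of -1.03 ± 0.82 (SE, adjusted p = 0.393), Fosb -1.30 ± 0.87 (adjusted p = 0.306) and Egr1 -1.21 ± 0.59 (adjusted p = 0.166). The confidence interval for Fos, -2.84 to 0.77, includes 0.

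The comparison was repeated on the libraries numbered 2 and 3, because library 1 stood apart for these genes. This choice was made from the members' own values and lowers their spread, so its p-values are not independent evidence. Here 6 of 10 members were lower in ITD LSK and none higher, where 8.1% of 11610 tested genes were lower. Fos fell by 0.78 on the log2 scale (SE 0.19, adjusted p = 0.0286), Fosb by 1.16, Fosl2 by 1.31, Junb by 0.69, Egr1 by 0.90 and Ier2 by 0.37. Jun, at -0.19, and Jund, at -0.845, did not pass, and Egr2 had a positive value of 0.31. Leaving out WT LSK library 1 alone gave 1 called member, Fosl2, at -1.47 (adjusted p = 0.0151).
Markers of other cells also differed in this comparison. The mature neutrophil marker sum was 62.9 to 272 FPKM in ITD LSK and 533 to 1139 in WT LSK for 5 found markers, and the erythroid sum was 7.32 to 105 against 278 to 723 for 5 found markers. The B cell sum was 40.2 to 51.1 against 99.5 to 156 FPKM for 6 markers, with Pax5 at 0 in ITD LSK. The LSK marker sum was 237 to 290 against 388 to 459 FPKM, and the megakaryocyte sum 32.2 to 39.6 against 55.9 to 90.3. The GMP marker sum was 1683 to 3349 against 1051 to 3086 FPKM, with 1 of 8 markers called, Ctsg at 1.34, and 6 of 8 positive. With libraries 2 and 3 alone 5 of the 8 GMP markers were higher, with a median of 1.31. The remaining sums overlapped, with 177 to 315 against 68.0 to 290.0 FPKM for monocyte, 38.9 to 46.3 against 30.8 to 44.1 for T and NK cell, and 14.3 to 32.7 against 20.4 to 38.5 for stromal markers. Their part in the members' values was not tested, and in bulk samples fewer cells of a type and less RNA per cell cannot be told apart. The 3 ITD LSK libraries were all female, and WT LSK had 1 female and 2 male libraries.

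**Figure D4:**
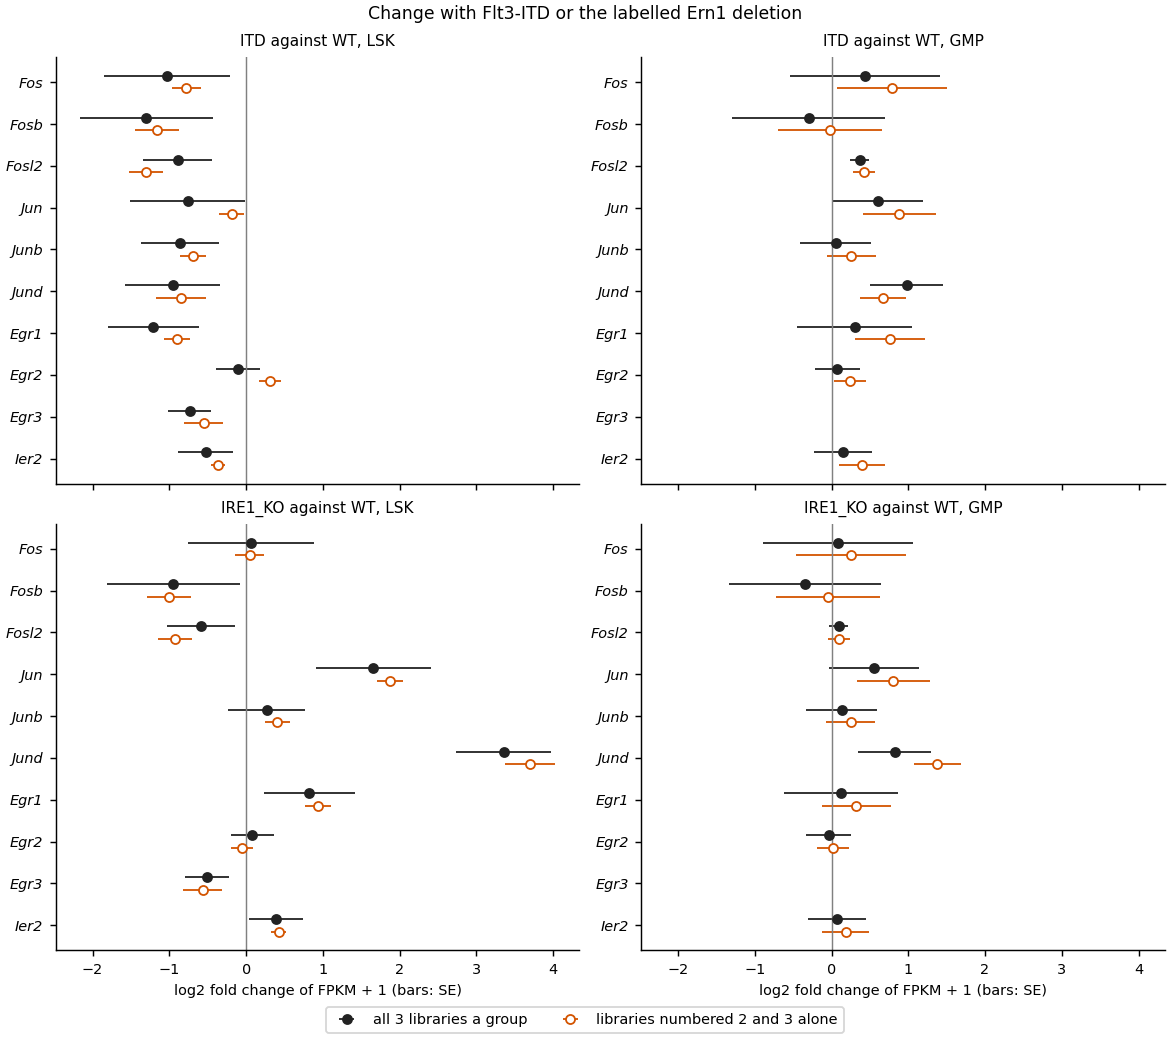
Log2 fold change of FPKM + 1 (bars: SE) of each member for ITD against WT (top) and IRE1_KO against WT (bottom), in LSK (left) and GMP (right). Filled points use all 3 libraries a group and open points libraries 2 and 3 alone. Egr3 was not tested in GMP. In LSK with ITD all filled points are negative, and Jund with IRE1_KO is the one filled point in LSK past the threshold.

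In GMP, Flt3-ITD gave no called member either. By limma, 0 of 9 tested members passed, against 10.7% of all tested genes (7.37% higher, 3.32% lower), and 1 had an unadjusted p under 0.05. Fos had a log2 fold change of 0.43 ± 0.98 (SE, adjusted p = 0.794), the opposite sign to LSK. Fosl2 was 3.07, 3.08 and 3.51 FPKM in ITD GMP and 2.41, 2.18 and 2.22 in WT GMP, without overlap, and its log2 fold change was 0.37 ± 0.12 (SE, adjusted p = 0.0735). Jund did not overlap either, at 18.8 to 30.3 against 9.29 to 11.9 FPKM, with 0.98 ± 0.48 (SE, adjusted p = 0.196). A fit of these 6 libraries alone called Jund (adjusted p = 0.0497). After the correction for GC content and length Jund was at 0.37 (limma adjusted p = 0.565). The GC measure had a mean of 0.145 in ITD GMP and -0.14 in WT GMP. Of 36 tested cell markers, 14 were lower and 0 higher by limma here, where 3.32% and 7.37% of all genes were. Their part in the members' values was not tested.
The difference of the ITD effect between GMP and LSK was tested directly. All 10 members had a positive difference, with a median of 1.13 against 0.00 over all genes (Egr2 was negative, at -0.23 and -0.06, without ITD LSK library 1 or ITD GMP library 2), and 0 of 10 passed by limma, where 13.6% of all genes did (6.45% higher, 7.1% lower) and 3 members had an unadjusted p under 0.05. Jund had 1.94 ± 0.84 (SE, adjusted p = 0.126), Egr1 1.51 ± 1.02 (adjusted p = 0.331), Fos 1.46 ± 1.36 (adjusted p = 0.498) and Fosl2 1.26 ± 0.49 (adjusted p = 0.0905). A fit of the libraries compared called Jund (adjusted p = 0.0467), and after the GC and length correction it was at 1.25 (limma adjusted p = 0.249). With libraries 2 and 3 alone Fosl2 passed, at 1.73 (adjusted p = 0.00647), and it also passed without WT LSK library 1, at 1.83.

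In LSK labelled IRE1_KO, 1 of 10 members was called against WT, where 23.7% of tested genes were (21% higher, 2.72% lower). Jund rose from 15.8 ± 8.1 to 184 ± 100 FPKM (SD, n = 3), a log2 fold change of 3.35 ± 0.62 (SE, adjusted p = 0.00224), and was higher in 3 of 3 libraries than any WT library. With any 1 library left out the adjusted p of Jund stayed between 0.000902 and 0.0131. Of 42 tested markers of other cells, LSK and GMP, none was called here by limma, and 3 had an unadjusted p under 0.05. With libraries 2 and 3 alone, 3 of 5 B cell and 2 of 5 erythroid markers were higher. So were 2 of 8 LSK, 2 of 8 GMP and 1 of 4 monocyte markers. No tested marker was lower there, where 20.6% of all genes were higher and 3.63% lower. The part of the markers in the members' values was not tested. Jun also did not overlap, but its log2 fold change of 1.66 ± 0.75 (SE) had an adjusted p of 0.144. Fos had a log2 fold change of 0.06 ± 0.82 (SE, adjusted p = 0.972), Fosb -0.95 ± 0.87 (adjusted p = 0.491) and Egr1 0.82 ± 0.59 (adjusted p = 0.373). Egr3 values did not overlap and were lower, 2.18 to 2.77 against 3.19 to 4.33 FPKM, at -0.51 ± 0.28 (SE, adjusted p = 0.233).
When restricted to libraries 2 and 3, 4 members were higher and 2 lower, where 20.6% and 3.63% of genes were. Jund rose by 3.70, Jun by 1.87, Egr1 by 0.93 and Ier2 by 0.42 on the log2 scale, while Fosb fell by 1.003 and Fosl2 by 0.92. Junb, at 0.41, and Fos, at 0.05, were positive, and Egr2, at -0.06, and Egr3, at -0.57, negative, but these did not pass. With library 1 included, Junb was negative after the GC and length correction, at -0.32, and without WT LSK library 1 alone, at -0.04. The choice of libraries 2 and 3 was made from the members' own values. A fit of the 6 libraries compared called Jun (adjusted p = 0.0339) and Egr3 (adjusted p = 0.0494) besides Jund. Without WT LSK library 1, Fosl2 was called besides Jund, at -1.16 (adjusted p = 0.0306).

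In GMP labelled IRE1_KO, none of the 9 tested members passed by limma, and 0.533% of all genes did (0.0267% higher, 0.507% lower). No member had an unadjusted p under 0.05. Jund had 7.42, 21.5 and 45.7 FPKM against 9.29, 11.04 and 11.9 in WT, so 2 of 3 libraries lay above the WT range and 1 below it.

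With Flt3-ITD present, the labelled deletion gave no called member in LSK, where 20.2% of genes were called (13.3% higher, 6.96% lower), and 1 member had an unadjusted p under 0.05. Jund was 9.001, 28.2 and 41.5 FPKM in IRE1_KO_ITD and 3.91, 7.97 and 10.9 in ITD, with a log2 fold change of 1.52 ± 0.62 (SE, adjusted p = 0.111). It passed without IRE1_KO_ITD LSK library 1, at 2.13 (adjusted p = 0.0421). Without ITD LSK library 1 it was Egr2 that passed, at -0.66 (adjusted p = 0.0181). Jun had 1.02 ± 0.75 (SE, adjusted p = 0.375) and Fos -0.17 ± 0.82 (adjusted p = 0.909). Without any library numbered 1, 2 members were higher, Jund by 1.77 and Jun by 0.85, where 11.5% of genes were, and Egr2 fell by 0.60, where 5.9% were lower. With all libraries, 4 of 42 tested cell markers were higher and 5 lower by limma, where 13.3% and 6.96% of genes were. Their part in the members' values was not tested.
Between IRE1_KO_ITD and IRE1_KO LSK, Jund fell by 2.79 on the log2 scale (SE 0.62, limma adjusted p = 0.00627), with no overlap of the groups. It was the 1 called member of 10, where 31.3% of genes were called (11.7% higher, 19.6% lower). Egr2 did not overlap either, at 3.14 to 3.85 against 4.17 to 6.38 FPKM (adjusted p = 0.273). All 10 members had a negative log2 fold change, with a median of -0.78 against -0.04 over all genes. Without IRE1_KO_ITD LSK library 1, Fosb was at 0.31, Fosl2 at 0.06 and Egr3 at 0.01. Cell markers moved in the same comparison: 5 of 5 tested B cell markers were lower, with a median of -2.93, as were 5 of 5 erythroid (-3.08) and 5 of 5 mature neutrophil markers (-3.14), 4 of 8 LSK and 2 of 8 GMP markers. Their part in the members' values was not tested. Libraries 2 and 3 alone gave 6 lower members, where 17.2% of genes were: Fos at -1.13, Jun at -1.21, Junb at -1.02, Egr1 at -1.25 and Ier2 at -0.65, and Jund. The comparisons in LSK share control libraries, so their values are not independent of each other.
The interaction of both genotypes in LSK, the ITD effect with the labelled deletion minus that without it, was -1.83 ± 0.88 (SE) for Jund and did not pass. None of 10 members passed by limma, where 6.94% of genes did (1.36% higher, 5.58% lower), and none had an unadjusted p under 0.05. Leaving out ITD LSK library 1 called Egr2, at -0.74 (adjusted p = 0.0486). With libraries 2 and 3 alone Jun, at -1.02, and Jund, at -1.93, passed, where 10.4% of genes did.

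In GMP carrying Flt3-ITD, IRE1_KO_ITD against ITD gave 0 called members of 9, where 1.83% of genes were called (0.916% in each direction), and against IRE1_KO 0 of 9, where 13% were (8.47% higher, 4.5% lower). The unadjusted p was under 0.05 for 1 member in the first and 0 in the second. Of 36 tested cell markers, 1 was higher and 0 lower by limma in the first, and 3 were higher and 17 lower in the second. Their part in the members' values was not tested. All 9 members were lower by sign than in ITD GMP, with a median of -0.33 against 0.07 over all genes. This shared sign depended on single libraries. Without IRE1_KO_ITD GMP library 3, Fos was at 0.74, Fosb 0.65, Ier2 0.25, Egr1 0.16, Junb 0.13 and Egr2 0.04. Without ITD GMP library 2, 5 members were positive, and without library 3, 3 were. Fosl2 did not overlap, at 1.84 to 2.81 against 3.07 to 3.51 FPKM, with a log2 fold change of -0.35 ± 0.12 (SE, adjusted p = 0.160). Jund did not overlap either, at 9.88 to 14.1 against 18.8 to 30.3 FPKM (adjusted p = 0.379). Leaving out IRE1_KO GMP library 1 called Jund against IRE1_KO, at -1.33 (adjusted p = 0.0328). The interaction in GMP gave 0 called members of 9 and 0 called genes in all (0%), with 2 members at an unadjusted p under 0.05.

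Between the populations more members passed, and so did a larger share of all tested genes. Counted in either direction, the share of members called was near that of all genes in WT, ITD and IRE1_KO_ITD, and above it in IRE1_KO. In WT, 5 of 10 members were lower in GMP than in LSK by limma and none was higher, where 50.3% of 12348 tested genes were called (19% higher, 31.3% lower). Egr1 fell by 2.98 on the log2 scale (SE 0.72, adjusted p = 0.00203), Junb by 1.75 (SE 0.52, adjusted p = 0.00850), Egr2 by 1.49 (SE 0.30), Egr3 by 1.85 (SE 0.24) and Ier2 by 1.11 (SE 0.39, adjusted p = 0.0248). Egr3 stayed under 1 FPKM in all 12 GMP libraries and entered the test only through LSK, where it is high, so its calls in these comparisons are a description. Without it, 4 of 9 members were lower in WT, 6 of 9 in IRE1_KO, 3 of 9 in IRE1_KO_ITD and 1 of 9 in ITD. Fos, at -2.27 ± 0.96 (SE, adjusted p = 0.0571), and Fosb, at -2.20 ± 0.998 (adjusted p = 0.0749), did not pass, although their LSK and GMP libraries did not overlap. Jun, Jund and Fosl2 overlapped. Without WT LSK library 1, Fos, Fosb and Fosl2 also passed as lower. Ier2 no longer passed without WT LSK library 2 or 3 or WT GMP library 1 (adjusted p of 0.0785 to 0.0829). The correction for GC content and length left 3, without Junb (adjusted p = 0.0506) and Ier2 (adjusted p = 0.157).
In IRE1_KO, 7 of 10 members were lower in GMP, where 50.8% of genes were called (12.2% higher, 38.5% lower): Egr1 at -3.675, Jund at -2.95, Junb at -1.88, Jun at -1.86, Egr2 at -1.61, Egr3 at -1.49 and Ier2 at -1.43. With the GC correction 4 passed, and Jun, Junb and Ier2 did not. Jun also did not pass without IRE1_KO LSK library 2 or 3 or IRE1_KO GMP library 1 (adjusted p of 0.0976 to 0.173), and Fos passed without IRE1_KO LSK library 1, at -2.80 (adjusted p = 0.0378). In IRE1_KO_ITD, 4 members were lower: Egr1 at -2.60, Junb at -1.34, Egr3 at -1.27 and Egr2 at -1.22, where 40.7% of genes were called (14.2% higher, 26.5% lower). Junb no longer passed without IRE1_KO_ITD LSK library 2 or 3, or GMP library 2 or 3 (adjusted p of 0.0649 to 0.197). Libraries 2 and 3 alone gave 9 lower members there, where 19.9% of genes were lower. That restriction leaves out the highest Fos library of this GMP group, 1216 FPKM, and the lowest of its LSK group, 357 FPKM, which by itself lowers GMP against LSK, so the count is no support.
In ITD, 2 members were lower and 2 higher in GMP. Egr2 fell by 1.31 and Egr3 by 1.06, while Fosl2 rose by 0.91 (adjusted p = 0.0433) and Jund by 1.52 (adjusted p = 0.0482), where 40.5% of genes were called (13.7% higher, 26.8% lower). Fosl2 lost its call when any 1 of the 6 ITD libraries was left out (adjusted p of 0.0541 to 0.146), and Jund lost it without any of them but ITD LSK library 3 (adjusted p of 0.0717 to 0.182). Jund also lost its call after the GC and length correction, at 1.23 (limma adjusted p = 0.0664). Egr1 passed without ITD LSK library 1, at -2.10 (adjusted p = 0.0416). In this genotype the library numbers met the criterion for pairing, and with the number as a block Fosl2 did not pass (adjusted p = 0.0546) and Egr1 did, at -1.47 (adjusted p = 0.0129). Egr2 was lower in GMP in all 4 genotypes, but in ITD not in a fit of the libraries compared (adjusted p = 0.0631).

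**Figure D5:**
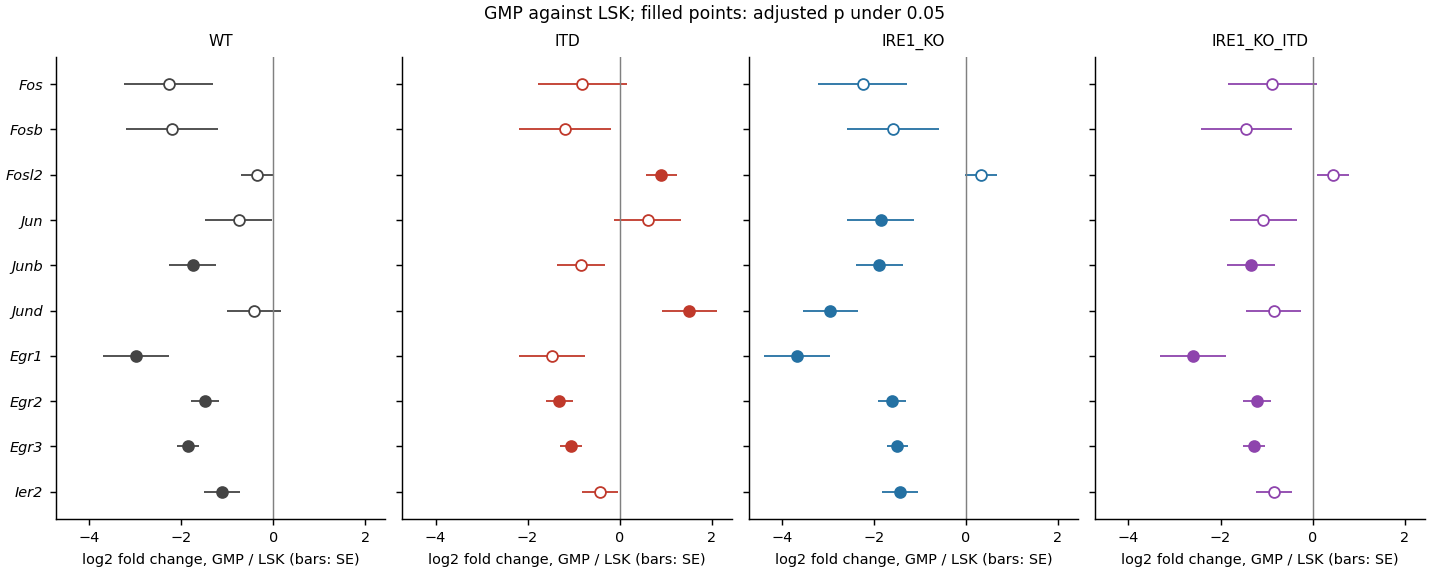
Log2 fold change of FPKM + 1 in GMP against LSK (bars: SE) of each member within each genotype, with filled points past an adjusted p of 0.05. Egr2 and Egr3 are filled and negative in every genotype (Egr3 was tested only through its LSK level), and Fosl2 and Jund are filled and positive in ITD.

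The partners and regulators of these genes were read from lists. Of 38 tested other immediate early genes in ITD against WT LSK, 3 were lower and none higher, where 7.27% of all genes were lower and 14.9% higher. The list had 34 of 38 negative values and a median of -0.82 against 0.08 over all genes. These 3 were Ier3, an apoptosis regulator, at -1.27 ± 0.35 (SE), Dusp2, a nuclear MAP kinase phosphatase, at -1.48 ± 0.45, and Cyr61 at -0.84 ± 0.24. In libraries 2 and 3 alone 21 were lower and 1 higher, where 8.1% and 13.6% of all genes were. Of 8 tested ERK feedback genes, 2 were lower in ITD LSK: Dusp6, the phosphatase of ERK, at -2.32 ± 0.38 (SE, adjusted p = 0.00273) and Spry2, a RAS pathway inhibitor, at -1.67 ± 0.23. Dusp6 was also lower in ITD GMP, at -1.97 ± 0.54 (SE, adjusted p = 0.0427), where 3.32% of all genes were lower. Of the heat shock genes, 5 of 11 tested were higher in ITD LSK, among them Hspd1 at 0.80 and Hsph1 at 1.03.
Of 13 tested genes reported as AP-1 or EGR targets, 2 were lower in ITD LSK, Mmp9 at -2.22 and Ccnd1 at -1.61, and 1 was higher, Bcl2l1 at 0.61. Of 10 SRF and cofactor genes, Elk3 at -0.73 and Crem at -0.39 were lower. Of 12 tested AP-1 partners none was called.

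In IRE1_KO against WT LSK, 11 of 19 MAP kinase pathway genes were higher and 2 lower, where 21% and 2.72% of all genes were, with a median of 0.67 against 0.14 over all genes. Grb2, an adaptor between receptors and RAS activation, rose from 14.8 to 67.1 FPKM and Hras from 2.07 to 14.7. Among 38 other immediate early genes 5 were higher, with Egr4 at 1.80 (0.732 FPKM in WT, under the filter), Zfp36l2 at 1.42, Dusp2 at 2.29 and Ier5 at 2.11. Egr4 is counted among the 5, and because its WT level lay under the filter its call is a description. Srf itself rose by 1.35 and Jdp2, a repressive AP-1 partner, by 0.97. Dusp5 rose by 2.30 among the ERK feedback genes, while Spry2 fell by 0.93. These genes come from the same 3 libraries with the 1 ng tag as the Jund values.
In WT GMP against LSK, 21 of 38 other immediate early genes were lower and none higher, where 31.3% and 19% of all genes were, with a median of -1.22 against -0.11 over all genes. The 4 with the smallest p were Nr4a2 at -1.95, Cyr61 at -1.20, Zfp36l1 at -2.12 and Socs3 at -2.74. Of the 38, 35 could be tested within GMP, and Cyr61, at 0.257 FPKM in GMP, entered through LSK. Of 8 ERK feedback genes 7 were lower, with Spry1 at -2.94, and of 10 SRF and cofactor genes 8 were, with Elk3 at -1.81. In ITD, 6 of the same 38 were lower in GMP and 2 higher, where 26.8% and 13.7% of all genes were, and in IRE1_KO 22 were lower and 1 higher, where 38.5% and 12.2% were. The difference of the ITD effect between GMP and LSK was positive for 33 of the 38 and passed for 3, where 6.45% of all genes were higher: Zfp36l2 at 2.18, Dusp2 at 2.14 and Rhob at 2.03.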

How the data were processed

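RNA sequencing of 24 libraries was analysed. Per the submitters' processing notes, STAR, Cufflinks and the mm10 build were used, with no versions given. The labels name SMART-Seq v4 with Nextera XT in one place and TruSeq Stranded in another, so the kit is not settled. The authors deposited FPKM per gene symbol, which is not a count, so no count model was used and absolute depth is unknown. Low values stood in ratios of small whole numbers between libraries, which gave relative depth.

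limma 3.58.1 (R 4.3.3, moderated test with a mean-variance trend) was run on log2(FPKM + 1) over the 12 libraries of a population, or all 24 for comparisons between populations. A gene entered when 3 or more of those libraries reached 1 FPKM, with Benjamini-Hochberg adjustment over all tested genes and a threshold of 0.05. Fold changes on this scale understate changes of low genes. The procedure was tested on simulated data. Xist and Y-linked genes gave each library's sex.

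The members, gene lists and tests were chosen with earlier results of these data known. The 10 members were named in every comparison, and from each further list up to 4 called genes with the smallest p, and the 10 genes whose pattern was most like the members' mean with and without group means. Some genes that this rule names are not reported here. Marker lists covered LSK, GMP, B, T and NK, erythroid, mature neutrophil, megakaryocyte, monocyte and stromal genes. Equal library numbers were not treated as pairs: deviations of same-numbered libraries correlated at -0.12 to 0.10 in LSK and -0.34 to 0.07 in GMP. Between the 2 populations of a genotype they correlated at -0.10 to 0.24, above 0.1 for each number in ITD alone. Alternatives were another pseudocount, no filter, 2 other scalings, a replicate block, a fit of the compared libraries only, no trend, sex as a covariate and leaving out each library. A GC and length correction and the use of libraries 2 and 3 alone were chosen after seeing the data.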

Additional observations from a re-analysis of the deposited data

How the results depend on the processing

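No called value changed sign. Of the alternatives that left out 1 library, 1011 values stayed on the same side of the threshold, 21 lost and 12 gained a call, and 130 uncalled values changed sign. Of the other alternatives 1345 stayed, 17 lost and 68 gained a call, and 57 uncalled values changed sign. The count of called members depended most on how library number was treated, for which the cause was not tested. With the replicate number as a block, for which the pairing criterion was met in GMP against LSK in ITD alone, 7 members were called for ITD against WT in LSK (23% of all genes), 5 for IRE1_KO against WT (22.9%), 3 for IRE1_KO_ITD against ITD (19.9%), 6 for IRE1_KO_ITD against IRE1_KO (31.8%) and 1 for the ITD effect in GMP minus LSK (15.9%). In ITD, GMP against LSK, that block ended the call of Fosl2 (adjusted p = 0.0546) and added Egr1 (adjusted p = 0.0129). Over libraries 2 and 3 alone the counts for the same LSK comparisons, in that order, were 6 (21.7% of all genes), 6 (24.3%), 3 (17.4%) and 6 (25.3%). The interaction in LSK had 2 (10.4%). GMP against LSK had 8 in WT (49%) and 9 in IRE1_KO_ITD (31.8%), and the ITD effect in GMP minus LSK had 1 (12.7%).

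A fit of only the libraries compared called 3 members for IRE1_KO against WT in LSK, 1 for ITD against WT in GMP, 2 for GMP against LSK in ITD and 1 for the ITD effect in GMP minus LSK. Without a filter on low values 2 were called for GMP against LSK in ITD. The GC and length correction left 3 for GMP against LSK in WT and 4 in IRE1_KO. It also ended the calls of Jund in ITD and of Junb in IRE1_KO_ITD for GMP against LSK. With 1 library left out, the counts ran from 0 to 1 for ITD against WT in LSK, 1 to 2 for IRE1_KO against WT, 0 to 1 for IRE1_KO_ITD against ITD, 0 to 1 for the interaction, 0 to 1 for IRE1_KO_ITD against IRE1_KO in GMP, 4 to 8 in WT, 2 to 3 in ITD for GMP against LSK, and 0 to 1 for the ITD effect in GMP minus LSK. The shares of all genes called in the fits of this paragraph are not given here. These counts therefore do not show whether the members or genes in general gained or lost calls. Where a group was left with 2 libraries the pooled spread of the fit was used. Egr3 lay under the filter in GMP, at 0.102 to 0.566 FPKM, and was not tested there.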
